A study of Homo sapiens with 12 samples.

Results

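The 8 genes described here are IFIT1, IFIT2, IFIT3, IFIT5, IFI27, IFI6, IFI44 and IFI44L, members of 3 families whose transcripts are induced by interferons. A probe set was taken for a gene where the platform annotation gave it to that gene alone, which left 12 probe sets for the 8 genes, and the probe set of highest mean over all arrays stood for the gene. All 8 genes passed the filter on dim probe sets and are among 14057 genes tested. The probe sets were thus chosen by their mean signal over the 12 arrays and by no difference between groups. The genes themselves were proposed with results of these arrays known, the rise under siKDM3A in SW780 among them, so their values in that comparison describe the arrays and support nothing by themselves.

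The study transfected 2 human cancer lines, A549 (lung carcinoma, grown in RPMI1640) and SW780 (bladder carcinoma, grown in Leibovitz's L-15), and measured mRNA on Affymetrix U133 Plus 2.0 arrays. Each line received siEGFP, siFFluc or siKDM3A at 100 nM with Lipofectamine 2000 for 24 h, which gives 6 groups of 2 arrays. siEGFP and siFFluc were taken as the control siRNAs from their names, as the labels give them no role. Every array came from cells that had received an siRNA duplex and transfection reagent, and cells without either were not analysed here. KDM3A encodes a histone demethylase that removes methyl groups from lysine 9 of histone H3. The labels do not say whether arrays of a group came from separate cultures, and where they did not, the p-values reflect technical spread alone. As the cells were measured in bulk, a change in the number of cells that carry a transcript and a change in its amount per cell cannot be told apart.

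Interferons are secreted proteins that cells release after sensing foreign nucleic acid. Type I and type III interferons bind receptors whose kinases, JAK1 and TYK2, activate a transcription factor complex named ISGF3, of which IRF9 is a subunit and which binds the interferon-stimulated response element (ISRE) in the promoters of its target genes. IRF3 and related factors can bind the same element without a receptor signal. The IFIT proteins are built of tetratricopeptide repeats and several of them bind viral RNA or block its translation. IFI27 and IFI6 are small hydrophobic proteins of 1 family, and IFI6 is known to protect cells from apoptosis and from some viruses. IFI44 and IFI44L are paralogs with a GTP-binding-like fold and are widely used as markers of an interferon response.

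The promoter sequences are shown because the ISRE is the element that these genes are known to share. RefSeq windows on GRCh38.p14, 250 bases before to 50 bases after the annotated start, were found for 7 of the 8 genes, and IFIT2 had none. The core of the ISRE, GAAA, any 2 bases and GAAA again, was searched on both strands, so that on the strand shown it can also read TTTC, 2 bases and TTTC. Of the 4 printed, IFIT1, IFI27 and IFI44L had the largest changes under siKDM3A in SW780 and IFIT5 had the smallest. Each is the 170 bases that end just before the start, read 5′ to 3′ on the plus strand, with matches in capitals.
IFIT1, chr10:89392453-89392622: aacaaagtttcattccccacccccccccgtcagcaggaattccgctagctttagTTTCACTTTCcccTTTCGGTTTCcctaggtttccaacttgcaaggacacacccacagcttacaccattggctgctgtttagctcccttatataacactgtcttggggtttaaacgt
IFI27, chr14:94110566-94110735: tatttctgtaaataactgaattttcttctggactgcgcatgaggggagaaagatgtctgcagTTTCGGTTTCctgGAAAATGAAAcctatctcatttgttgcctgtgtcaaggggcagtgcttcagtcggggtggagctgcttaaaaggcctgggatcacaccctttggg
IFI44L, chr1:78620278-78620447: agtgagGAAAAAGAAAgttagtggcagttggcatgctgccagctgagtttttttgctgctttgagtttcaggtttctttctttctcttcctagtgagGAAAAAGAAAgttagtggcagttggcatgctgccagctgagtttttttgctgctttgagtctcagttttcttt
IFIT5, chr10:89414398-89414567: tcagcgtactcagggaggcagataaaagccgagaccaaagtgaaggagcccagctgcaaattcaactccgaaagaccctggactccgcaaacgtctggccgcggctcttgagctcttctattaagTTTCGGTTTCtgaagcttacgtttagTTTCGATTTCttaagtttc

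All 7 genes with a window held the core, against 3.57% of all 35116 windows and 3.9% of the 11315 tested genes that had one. It is not particular to them, since 23 of 34 other antiviral effectors with a window (67.65%) held it too. IFIT1 and IFI44L held 2 matches each, IFI6 held 3 and IFI44 held 1. IFIT3 and IFI27 held 2 in each of the 2 windows given for them. IFIT5 held 3, of which the third runs across the start and is not in capitals. IFIT5 thus had no fewer matches than the genes that changed most. A match describes letters in a window and is no measure of binding. In the genome IFIT2, IFIT3, IFIT1 and IFIT5 stand in that order on chromosome 10 with IFIT1B between IFIT3 and IFIT1, IFI44L and IFI44 are neighbours on chromosome 1, IFI27 lies between its relatives IFI27L1 and IFI27L2 on chromosome 14, and IFI6 lies elsewhere on chromosome 1.

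The deposited values are signals scaled to one trimmed mean, with array medians of 50.3 to 59.1. KDM3A itself was at 53.3% of its control level in SW780 and at 50.5% in A549, with log2 differences of -0.86 ± 0.10 (SE) and -0.97 ± 0.10, adjusted p = 0.000263 and 8.02e-05, and siKDM3A arrays below all control arrays in each line. All 8 urothelial markers had a probe set, and their summed signal was 27315 to 35418 in SW780 and 3409 to 4025 in A549. The brightest in SW780 were GATA3 at 10802.6 to 16048.8 and UPK1B at 8502 to 11274.4. Others of the list were dim there, with UPK2 at 77.6 to 194.1 and KRT20 at 46.8 to 115.6. UPK3A was near the floor in both lines, at 4.0 to 9.3 in SW780 and 3.5 to 11.2 in A549. UPK1A, UPK3B and PPARG lay between these in SW780. The lung markers were dim in A549, with a sum over 5 of 6 markers of 207 to 377, against 286 to 449.9 in SW780. In A549 NKX2-1 was at 2.5 to 26.0, SCGB1A1 at 1.5 to 5.8 and SFTPC at 17.4 to 67.8. NAPSA was at 45.9 to 120.8 and SFTPB at 92.1 to 210.8 in that line. All 5 epithelial markers had a probe set, with a sum of 41431 to 45769 in A549. In SW780 the sum moved with the siRNA, at 94831 to 105779 under siEGFP, 119523 to 139746 under siFFluc and 98879 to 110013 under siKDM3A, with KRT18, KRT19 and CDH1 higher under siFFluc than siEGFP. Under siKDM3A in SW780, KRT8 fell by 0.34 (adjusted p = 0.0338), CDH1 by 0.26 (0.0416) and the urothelial UPK1B by 0.45 (0.00107). Of the lung markers, SFTPC had -1.08 (0.0413) in SW780 and SFTPB had -0.78 (0.0127) in A549 under siKDM3A. The part of these markers in the results was not tested.

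Under control siRNAs the 8 genes lay lower in SW780 than in A549, by 1.47 to 70.5 times. All 8 of 8 passed the test in that direction, as did 38.5% of all genes tested. Their median log2 difference was -2.71, with a range of -5.92 to -0.52, beside -0.11 over all genes. For 7 of the 8 every SW780 control array lay below every A549 control array, which was the case for 33.5% of all genes, and for IFIT2 the arrays overlapped. Line, tissue of origin and medium cannot be told apart in this comparison. Differences are given on the scale log2(signal + 16), which understates the change of dim probe sets, and signals of different genes come from different probes and are not compared with each other.

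**Figure D1:**
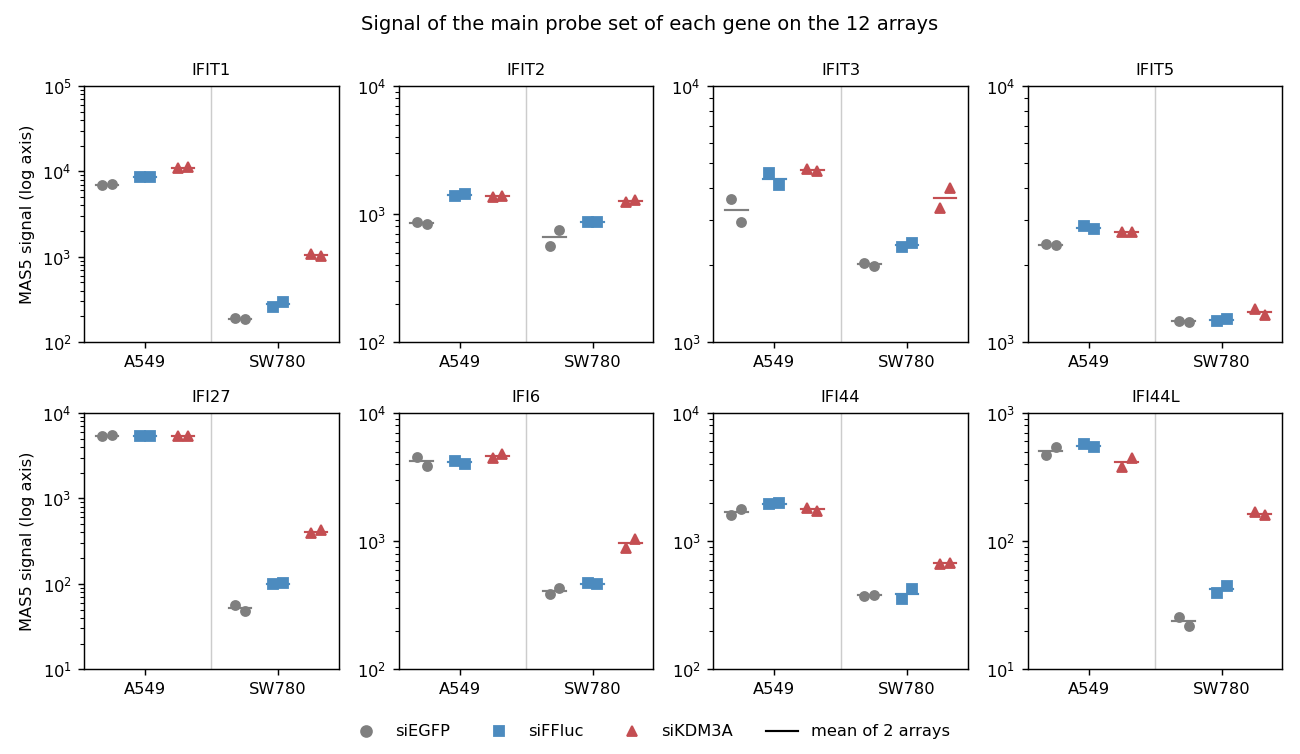
MAS5 signal (log axis, its range differs between panels) of the main probe set of each gene on every array, by line and siRNA, with a bar at the mean of 2 arrays. IFIT1, IFIT5, IFI27, IFI6, IFI44 and IFI44L lie lower on every SW780 array than on any A549 array, and within SW780 the siKDM3A arrays lie above all control arrays in all 8 panels.

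Among the RNA-binding IFIT genes, IFIT1 differed most between the lines. In A549 its signal was 6934 and 7068 under siEGFP, 8559 and 8480 under siFFluc, and 10949 and 11235 under siKDM3A. In SW780 it was 191 and 186, 256 and 298.5, and 1077 and 1032 in the same order. The groups rank in the same order of siRNAs in each line with no overlap, and the highest SW780 array lies below every A549 array. The control difference was -4.98 ± 0.06 (adjusted p = 1.82e-15), which is 33.3 times lower in SW780.

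IFIT2 and IFIT3 lay much closer between the lines. IFIT2 was at 871 and 830.1, 1373 and 1421.5, and 1362 and 1385 in A549, and at 568 and 752, 871 and 867, and 1252 and 1295 in SW780, in the order siEGFP, siFFluc and siKDM3A. IFIT3 was at 3617 and 2957, 4580.4 and 4118, and 4757 and 4673 in A549, and at 2044.5 and 1981.5, 2346 and 2446, and 3345.5 and 3990.4 in SW780. For IFIT2 the SW780 siFFluc arrays overlap A549 siEGFP and the A549 siKDM3A arrays overlap A549 siFFluc, and for IFIT3 the SW780 siKDM3A arrays overlap A549 siEGFP. The control differences were -0.52 ± 0.08 (adjusted p = 5.74e-05) for IFIT2 and -0.78 ± 0.07 (adjusted p = 5.34e-07) for IFIT3, or 1.47 and 1.73 times.

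IFIT5, an RNA-binding member that lies beside IFIT1 in the genome, varied least. Its signals were 2410.1 and 2388, 2830.4 and 2761, and 2693 and 2681 in A549, and 1207 and 1203, 1211 and 1235.5, and 1350.5 and 1275 in SW780. All of its neighbouring group means were separate, but the steps within SW780 were small. Its control difference was -1.08 ± 0.05 (adjusted p = 3.5e-10), or 2.14 times.

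IFI27 showed the widest gap of the 8 between the lines, and its relative IFI6 a smaller one. IFI27 was at 5342 and 5506, 5343 and 5319, and 5370.2 and 5417 in A549, so no siRNA moved it there by more than its arrays differ, and at 55.8 and 48.5, 99.8 and 101, and 394 and 425 in SW780. IFI6 was at 4518 and 3884, 4249.5 and 4025, and 4426 and 4751 in A549, where neighbouring groups overlap, and at 388 and 434, 468 and 465, and 889.9 and 1031 in SW780. The control differences were -5.92 ± 0.07 (adjusted p = 1.31e-15) for IFI27 and -3.20 ± 0.07 (adjusted p = 2.59e-13) for IFI6, or 70.5 and 9.5 times.

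The paralogs IFI44 and IFI44L followed the same order of lines. IFI44 was at 1603 and 1789, 1964 and 1968.5, and 1817.5 and 1716 in A549, and at 371 and 383, 351 and 423, and 665 and 679.8 in SW780, with siEGFP and siFFluc overlapping in SW780 and siEGFP and siKDM3A overlapping in A549. IFI44L was at 468 and 539.7, 570.3 and 545, and 379.6 and 446 in A549, and at 25.6 and 21.6, 39.5 and 44.4, and 168 and 159 in SW780, with no neighbouring groups overlapping. On its siEGFP arrays in SW780, IFI44L lay below the signal of 29.6 that served as the filter on mean level. The control differences were -2.21 ± 0.07 (adjusted p = 1.35e-11) for IFI44 and -3.51 ± 0.13 (adjusted p = 4.66e-11) for IFI44L, or 4.79 and 16.2 times.

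Under siKDM3A in SW780, all 8 genes were above every control array and 7 of the 8 passed the test as higher. Over all genes tested, 15.4% had both siKDM3A arrays above all 4 control arrays and 5.73% passed as higher. Since the genes were proposed with this comparison known, nothing is read from these counts. The median log2 difference of the 8 was 0.95, from 0.11 to 2.26, beside 0.03 over all genes. The 7 adjusted p-values ran from 4.38e-09 to 0.000512.

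The changes in SW780 differed in size within each family. Of the IFIT genes, IFIT1 rose by 2.13 ± 0.07, which is 4.53 times the control mean, while IFIT2 and IFIT3 rose by 0.74 ± 0.10 and 0.73 ± 0.09, or 1.67 and 1.66 times. IFIT5 differed by 0.11 ± 0.06, 1.08 times, with an adjusted p of 0.28. IFI27 rose by 2.26 ± 0.08, 5.37 times, and IFI6 by 1.10 ± 0.09, 2.19 times. IFI44L rose by 1.90 ± 0.16, 4.98 times, and its paralog IFI44 by 0.79 ± 0.09, 1.76 times. By size of increase IFI27, IFIT1 and IFI44L ranked 2, 3 and 5 among all genes tested.

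**Figure D2:**
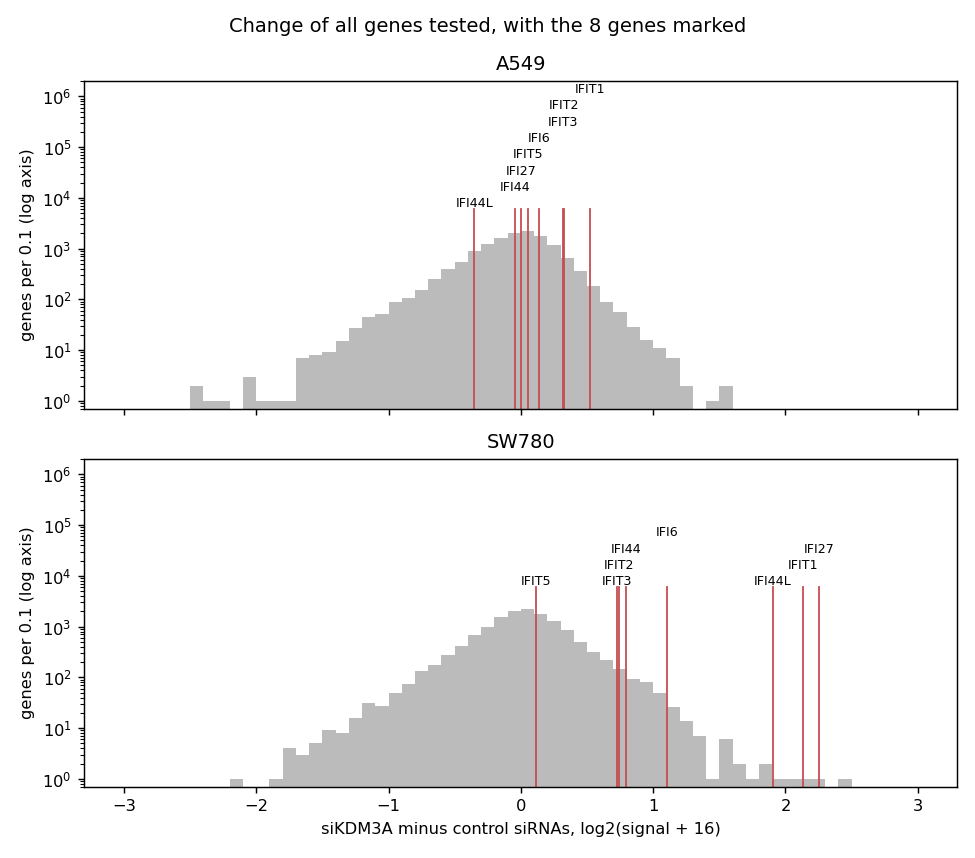
Number of genes (log axis) per 0.1 of the log2 difference between siKDM3A and control siRNAs, for all genes tested in A549 (top) and SW780 (bottom), with a red line at each of the 8 genes. In SW780 IFI44L, IFIT1 and IFI27 lie at the right end at 1.90, 2.13 and 2.26, while in A549 the 8 lie within -0.35 to 0.52.

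The rise did not bring SW780 to the A549 control level for most of the genes. As a percentage of the A549 control mean, IFIT1 went from 3% in SW780 controls to 13.6% under siKDM3A, IFI27 from 1.42% to 7.61%, and IFI44L from 6.18% to 30.7%. IFI6 went from 10.5% to 23% and IFI44 from 20.9% to 36.7%. IFIT2 went from 68% to 113% and IFIT3 from 57.7% to 96.1%, while IFIT5 stayed near its own level at 46.7% and 50.5%. These percentages use control arrays that also enter the siKDM3A comparison.

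Leukocyte markers were low in SW780 but their sum moved in the same order as the genes. Over 6 of 8 markers it was 232 to 254 under siEGFP, 305 to 322 under siFFluc and 331 to 355 under siKDM3A. None of the 3 bright enough to be tested passed as higher, and their median difference under siKDM3A was 0.43, beside 0.03 over all genes. PTPRC, which defines leukocytes, was at 3.9 to 24.0. CD79A and ITGAM were brighter, at 53.7 to 149.5 and 64.7 to 138.2, while CD3E, CD14 and LYZ reached at most 67.5. CLEC4C and LILRA4, which mark plasmacytoid dendritic cells, reached at most 48.4. TCF4, also on that list, was brighter, at 235.2 to 360.2 in SW780 and 286.7 to 413.4 in A549. It did not pass under siKDM3A in SW780. No defining marker was at exactly 0, and the part of these markers in the result was not tested.

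In A549 the same siRNA changed fewer of the genes and by less. Of the 8, 3 passed as higher, IFIT1, IFIT2 and IFIT3, and none as lower, against 5.33% of all genes higher and 6.37% lower. IFIT1 rose by 0.52 ± 0.07 (adjusted p = 0.000413), which is 1.43 times, with both siKDM3A arrays above all 4 control arrays. IFIT3 was higher by 0.32 ± 0.09 (adjusted p = 0.0353), 1.23 times, and IFIT2 by 0.33 ± 0.10 (adjusted p = 0.0478), 1.22 times, although the IFIT2 arrays overlap the controls. Those 2 calls depend on the control: against siFFluc alone IFIT2 differed by -0.02 (adjusted p = 0.93) and IFIT3 by 0.12 (adjusted p = 0.56), and IFIT1 by 0.38 (adjusted p = 0.0106). Without A549 siEGFP replicate 2, A549 siFFluc replicate 2 or either A549 siKDM3A array, IFIT1 alone passed. The IFIT2 call was also lost without the other A549 control arrays or either SW780 siKDM3A array, and the IFIT3 call without either SW780 siEGFP array.

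The other 5 genes did not pass in A549. IFIT5 differed by 0.05 ± 0.06 (adjusted p = 0.657), IFI27 by 0.00 ± 0.08 (0.983) and IFI6 by 0.14 ± 0.09 (0.363). IFI44 differed by -0.05 ± 0.09 (0.813), and IFI44L by -0.35 ± 0.16 (0.193), with both of its siKDM3A arrays below all controls. Over the 8 genes the arrays lay wholly above the controls for 2, below for 1 and overlapped for 5, where 17.0% and 19.9% of all genes lay above and below. The median was 0.10, beside -0.02 over all genes.

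**Figure D3:**
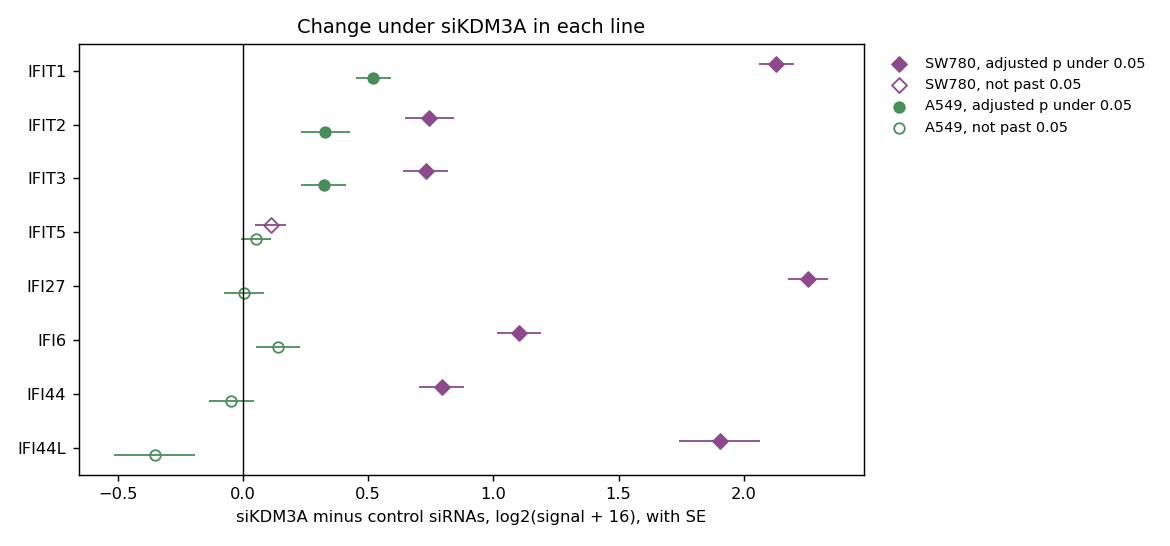
Log2 difference between siKDM3A and the control siRNAs for each gene, with its SE, in SW780 (diamonds) and A549 (circles), filled where the adjusted p was under 0.05. The SW780 point lies to the right of the A549 point for all 8 genes, by 0.06 for IFIT5 to 2.26 for IFI44L.

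The difference between the lines in the response was tested directly as an interaction. It passed as larger in SW780 for 5 of the 8 genes, against 1.80% of all genes, and includes the SW780 comparison with which the genes were chosen. IFI44L had 2.26 ± 0.23 (adjusted p = 0.000653) and IFI27 had 2.25 ± 0.11 (adjusted p = 7.68e-07). IFIT1 followed with 1.61 ± 0.10 (adjusted p = 5.19e-06), then IFI6 with 0.96 ± 0.12 (0.00297) and IFI44 with 0.84 ± 0.13 (0.00691). IFIT2, IFIT3 and IFIT5 had 0.42 ± 0.14 (0.135), 0.41 ± 0.13 (0.104) and 0.06 ± 0.09 (0.773) and were not shown to differ. The IFI44 call was lost without A549 siKDM3A replicate 2 (adjusted p = 0.0591) and when its probe sets were averaged (0.127), and IFIT2 passed without SW780 siEGFP replicate 2 (0.049).

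The control siRNAs also differed from each other in these genes. In SW780, 2 of the 8 passed as higher under siFFluc than under siEGFP, against 3.07% of all genes, and both siFFluc arrays lay above both siEGFP arrays for 7 of the 8, against 23.6%. IFI27 was higher by 0.77 ± 0.09 (adjusted p = 0.000491), which is 1.93 times, and IFIT1 by 0.52 ± 0.08 (adjusted p = 0.00393), 1.47 times. IFI44L at 0.55 ± 0.19 (0.109) and IFIT2 at 0.40 ± 0.11 (0.0579) did not pass, nor did the remaining 4, which lay between 0.02 and 0.25. Without SW780 siEGFP replicate 2, IFIT2 passed (0.0228). With the fit on the SW780 arrays alone, neither IFI27 (0.153) nor IFIT1 (0.143) passed. The median of the 8 was 0.33, beside 0.00 over all genes.

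In A549, IFIT2 was the 1 gene of the 8 that passed, with 0.70 ± 0.11 (adjusted p = 0.00333), 1.64 times, against 1.43% of all genes. IFIT3 had 0.41 ± 0.10 (0.0572), IFIT1 had 0.28 ± 0.08 (0.101) and IFIT5 had 0.22 ± 0.07 (0.156). IFI44 had 0.21 (0.435), IFI44L 0.14 (0.864), IFI6 -0.02 (0.976) and IFI27 -0.03 (0.963). Both siFFluc arrays lay above both siEGFP arrays for 6 of the 8, against 24.3% of all genes. Without SW780 siFFluc replicate 1 or 2 in the shared fit, 3 of the 8 passed, and without A549 siEGFP replicate 1 or either SW780 siKDM3A array 2 did.

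As the comparisons share the control arrays, siKDM3A was also set against each control siRNA. In SW780, 7 of the 8 passed as higher against siEGFP and 7 against siFFluc, the same genes as against both. IFI27 was 7.85 times siEGFP and 4.08 times siFFluc, IFIT1 was 5.59 and 3.81 times. IFI44L was 3.89 times siFFluc, and no ratio to siEGFP is given because those arrays lay below the signal of 29.6. IFI6 was 2.34 and 2.06 times, IFIT2 1.93 and 1.47, IFIT3 1.82 and 1.53, and IFI44 1.78 and 1.74. In A549, 3 passed against siEGFP, namely IFIT1 at 0.66 (adjusted p = 0.000297), IFIT2 at 0.68 (0.00249) and IFIT3 at 0.53 (0.00752), and 1 against siFFluc. The difference between the lines passed for 5 genes with either control.

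**Figure D4:**
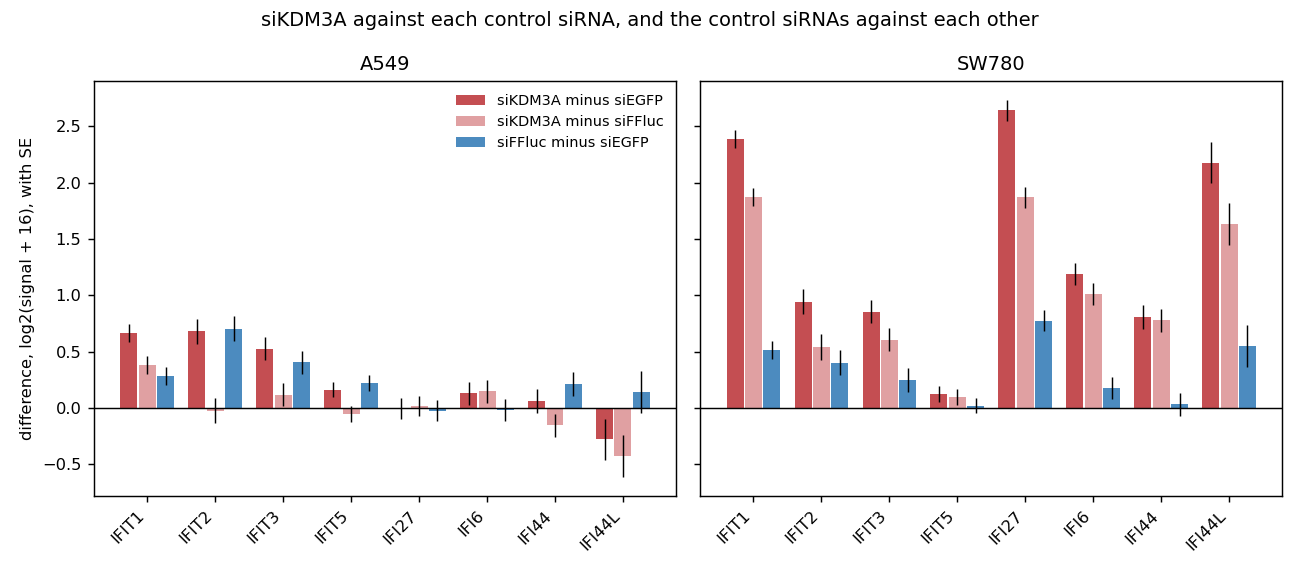
Log2 differences (bars from 0, lines show the SE) of siKDM3A minus siEGFP, siKDM3A minus siFFluc and siFFluc minus siEGFP, for each gene in A549 (left) and SW780 (right); the 3 bars of a gene share arrays. In SW780 the siKDM3A bars exceed the siFFluc minus siEGFP bar for every gene, while for IFIT2 in A549 siFFluc (0.70) and siKDM3A (0.68) lie alike above siEGFP.

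IFIT2, IFIT3, IFIT5 and IFI44 each had a second probe set, with a lower mean over the 12 arrays. The second IFIT2 probe set was at 268 and 236.5, 350 and 445, and 394 and 407 in A549, and at 328 and 307.5, 356 and 435, and 534 and 556 in SW780. Adjusted over the 27056 probe sets that entered this fit, siKDM3A raised it in SW780 by 0.60 ± 0.13 (adjusted p = 0.013), and raised the second IFIT3 probe set by 0.63 ± 0.10 (adjusted p = 0.00216). In A549 the same probe sets differed by 0.33 (0.15) and 0.23 (0.19) and did not pass.

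The lower control level of IFIT2 in SW780 was not seen with its second probe set. There the line difference was 0.16 (adjusted p = 0.222), beside -0.52 for the main one. The second IFIT3 and IFIT5 probe sets kept the direction, with -0.54 (6.84e-05) and -1.56 (4.09e-08). The second IFIT5 probe set had -0.29 ± 0.14 (0.251) under siKDM3A in SW780, opposite in sign to the main one, and neither passed. The second IFI44 probe set was dim, at 28.5 to 77.6 on all arrays, and had 0.28 ± 0.32 (0.672) in SW780.

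**Figure D5:**
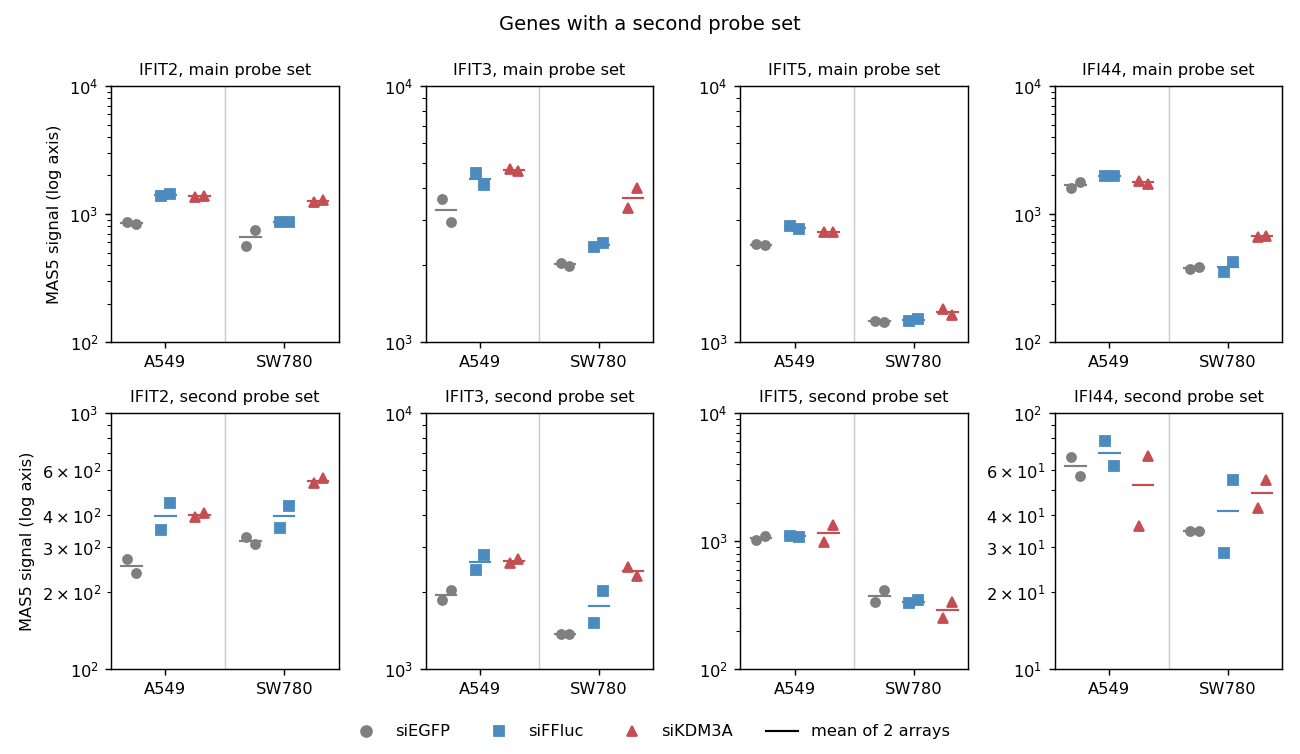
MAS5 signal (log axis, its range differs between panels) on every array for the 4 genes with 2 probe sets, the main one above and the second one below, by line and siRNA, with a bar at the mean of 2 arrays. IFIT2 and IFIT3 rise under siKDM3A in SW780 on both probe sets, and the second IFI44 probe set lies at 28.5 to 77.6 throughout.

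Within a line, most of the genes moved together over the arrays. After each gene was centred on the mean of its line, the mean of the 8 was -0.59 and -0.56 under siEGFP, -0.28 and -0.20 under siFFluc, and 0.79 and 0.84 under siKDM3A in SW780. In A549 it was -0.15 and -0.17, 0.10 and 0.06, and 0.06 and 0.10. The correlation of each gene with that mean, which includes the gene itself, was 0.987 for IFIT1 and 0.977 for IFI27, 0.945 to 0.965 for IFI6, IFI44 and IFI44L, 0.9 for IFIT3, 0.837 for IFIT2 and 0.621 for IFIT5. The 12 arrays share their group means, so these are descriptions. The mean varied most in SW780, and no correlation was taken within 1 line. In A549 the genes did not all move alike under siKDM3A, with 0.52 for IFIT1, 0.00 for IFI27 and -0.35 for IFI44L.

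The 5 genes outside the 8 with the most similar pattern over the 12 arrays were IRF9 (r = 0.986), EPSTI1 (0.976), MX1 (0.970), MED13 (0.969) and BORCS7 (0.966). IRF9, the DNA-binding subunit of ISGF3, was at 307 and 299.7, 378 and 379.9, and 1063 and 1216.5 in SW780, and the interaction was 1.46 ± 0.11 (adjusted p = 2.62e-05). It rose by 1.70 ± 0.08 in SW780 (adjusted p = 5.84e-08) and had 0.24 in A549 (adjusted p = 0.0565). MX1, a GTPase that blocks virus replication, rose from a control mean of 156 to 563 in SW780 and from 2496 to 2804.5 in A549, where it did not pass. MED13, a subunit of the Mediator complex, went from 1539 to 2356.

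The rest of the pathway was counted on lists of genes grouped by role. These lists were drawn up with earlier results of these data known, so their counts are descriptions and no independent support. Of 42 other antiviral effectors tested, 17 passed as higher and 2 as lower under siKDM3A in SW780, where 5.73% and 6.18% of all genes did, with a median of 0.15. In A549 3 passed as higher and 4 as lower, shares near those of all genes (5.33% and 6.37%), with a median of 0.01. Without SW780 siKDM3A replicate 2, 12 passed in SW780. The A549 count of 7 became 0 when the first A549 siKDM3A array was left out, 3 when the second or A549 siFFluc replicate 1 was, and 12 without either SW780 siFFluc array. The interaction passed as larger in SW780 for 8 of the 42, against 1.80% of all genes.

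Single effectors that passed are named for the line in which they were picked. In SW780 OAS2, a sensor that makes oligoadenylate, rose by 1.37 ± 0.17 (adjusted p = 0.000288), and PLSCR1, a scramblase, by 0.50 ± 0.06 (adjusted p = 0.000293). In A549 ISG15, a ubiquitin-like protein, rose by 0.39 ± 0.08 (adjusted p = 0.00622), NMI by 0.30 (0.0073), and SAMD9L fell by 0.53 (0.00314). These 5 passed in the same direction against each control alone. ISG15 also rose in SW780, by 0.59 ± 0.08 (adjusted p = 0.000516). The interaction passed for OAS2 (adjusted p = 0.032). It did not pass for PLSCR1 (0.0748), SAMD9L (0.0755), NMI (0.205) or ISG15 (0.373), which were not shown to differ between the lines.

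Among 7 transcription factors tested, IRF9 and IRF7 rose in SW780 and IRF3 fell, against each control alone too. The shares of all genes there were 5.73% higher and 6.18% lower, and 6.37% were lower in A549. IRF7, which drives interferon genes, rose by 0.84 ± 0.13 (adjusted p = 0.00107), and IRF3 fell by 0.42 ± 0.09 (adjusted p = 0.0096). In A549 IRF2 had -0.76 (adjusted p = 0.019), with -0.74 (0.0512) against siEGFP alone and -0.78 (0.0371) against siFFluc alone. Without A549 siEGFP replicate 2, siFFluc replicate 2 or either siKDM3A array, no factor of the list passed in A549, and without any 1 SW780 control array 2 did.

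The calls among 9 receptors and kinases depended on the control. They were 1 higher and 1 lower in SW780, where 5.73% and 6.18% of all genes passed. In A549 1 was lower, where 6.37% of all genes were. In SW780 JAK1 had -0.39 ± 0.07 (adjusted p = 0.00391), with -0.22 (0.142) against siEGFP and -0.56 (0.000872) against siFFluc, and siFFluc exceeded siEGFP by 0.34 (0.0328). IL10RB, a chain of the type III receptor, had 0.35 (0.0425), with 0.26 (0.224) and 0.43 (0.0268) against siEGFP and siFFluc. In A549 IFNLR1, the other type III chain, had -0.58 (0.0306), with -0.43 (0.178) and -0.72 (0.0227). Leaving out 1 array moved the SW780 count of 2 to 0 without SW780 siKDM3A replicate 1 and to 1 without SW780 siKDM3A replicate 2, SW780 siEGFP replicate 1 or any 1 A549 siFFluc or siKDM3A array. It moved the A549 count of 1 to 0 without any 1 of the A549 siFFluc or siKDM3A arrays and to 4 without either SW780 siFFluc array.

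Negative regulators also gave 1 call per line out of 7, both as higher. Of all genes, 5.73% passed as higher in SW780 and 5.33% in A549, and nothing is read from 1 call. USP18, an ISG15 protease that blocks the type I receptor, had 0.61 ± 0.14 in SW780 (adjusted p = 0.0124), with 0.71 (0.0191) against siEGFP and 0.50 (0.0515) against siFFluc. The phosphatase PTPN2 had 0.25 in A549 (0.0309), with 0.23 (0.0905) and 0.26 (0.0476). The SW780 count was 0 without SW780 siKDM3A replicate 2 and 2 without SW780 siFFluc replicate 1. The A549 count was 0 without A549 siEGFP replicate 2, siFFluc replicate 1 or either siKDM3A array, and 2 without SW780 siFFluc replicate 2.

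Of 14 sensors and adaptors tested, 4 were higher and 1 lower in SW780, where 5.73% and 6.18% of all genes were. In A549 1 was higher, where 5.33% of all genes were. The 1 lower in SW780 and the 1 higher in A549 lie near those shares. The SW780 count of 5 was 2 without SW780 siKDM3A replicate 1 and 3 without siKDM3A replicate 2 or siEGFP replicate 2, and the A549 count was 2 without A549 siEGFP replicate 1 or any 1 SW780 siFFluc or siKDM3A array. The kinase TBK1 rose by 0.34 (0.0049) in SW780, against each control too. The RNA-activated kinase EIF2AK2 had 0.40 ± 0.08 in SW780 (adjusted p = 0.00533), with 0.79 (0.000273) against siEGFP and 0.02 (0.927) against siFFluc. The ubiquitin ligase TRIM25 passed as higher in SW780 by 0.66 ± 0.07 (0.000104) and in A549 by 0.52 (0.000398), but only its siFFluc arrays stood apart. In SW780 they were at 1413 and 1392, beside 3065 and 3576 under siEGFP and 3296 and 3520.5 under siKDM3A, and against siEGFP alone TRIM25 had 0.04 (0.833) in SW780 and 0.02 (0.926) in A549.

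Of 20 targets known best for interferon gamma, 3 were higher and 1 lower in SW780, where 5.73% and 6.18% of all genes were. In A549 2 were lower, where 6.37% of all genes were. The lower counts are near the shares over all genes in both lines. The chemokines CXCL10 and CXCL11 rose in SW780 by 2.45 ± 0.49 (adjusted p = 0.0061) and 1.00 ± 0.18 (0.00293), against each control too. CXCL10 was dim in SW780 controls, with a mean of 45.4 and an SD of 40.7, beside a mean of 273.6 under siKDM3A. The tryptophan-degrading enzyme IDO1 had 1.33 ± 0.37 (0.0324), with 0.0568 and 0.0833 as adjusted p against siEGFP and siFFluc alone. HLA-B, which presents peptides, had -0.32 (0.0383) in SW780, where it was at 8690.5 under siEGFP, 12446.5 under siFFluc and 8276 under siKDM3A on average. It had -0.07 (0.773) against siEGFP alone there, and in A549 -0.31 (0.0478), with -0.24 (0.197) against siEGFP alone.

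The peptide transporter TAP2 had -0.38 (0.0131) in A549, with -0.26 (0.124) against siFFluc alone. The SW780 count of 4 gamma targets was 1 without SW780 siKDM3A replicate 1, 2 without SW780 siKDM3A replicate 2, SW780 siEGFP replicate 1 or A549 siFFluc replicate 1, and 7 without SW780 siFFluc replicate 2. The A549 count of 2 was 0 without either A549 siKDM3A array, 1 without any 1 of the A549 siFFluc, SW780 siEGFP or SW780 siKDM3A arrays, and 4 without either SW780 siFFluc array.

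Of the relatives of the 8 genes, IFI27L1 had 0.37 (adjusted p = 0.0842) and IFI27L2 0.33 (0.0788) in SW780. Both passed without SW780 siFFluc replicate 2, and IFI27L2 passed against siFFluc alone with 0.44 (0.0401). Of 18 interferon genes, 16 had a probe set and 2 were bright enough to be tested. Neither passed in either line, although 1 did in SW780 without SW780 siFFluc replicate 1 and 1 in A549 with a pseudocount of 64. Apart from IFNK, no interferon probe set exceeded 68.5 on any array.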

How the data were processed

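The deposited values were microarray intensities, 1 signal for each of 54675 probe sets on each of 12 arrays, made by the authors with MAS5 per the submitters' processing notes; its version is not named there. A mean trimmed by 2% at each end was the same on all arrays. No column lacked a sample. After 62 control probe sets were removed, 41091 of 54613 had 1 gene symbol in the platform annotation, 1801 had several and 11721 had none; 41037 symbols were updated by gene number. Probe sets under the 40th percentile of mean level (29.6) were left out, and 1 probe set a gene, that of highest mean, was kept.

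Values were tested as log2(signal + 16) with limma 3.58.1 (R 4.3.3): 6 group means over the 12 arrays, 6 residual degrees of freedom, empirical Bayes with a trend and Benjamini-Hochberg adjustment over 14057 genes, threshold 0.05. Scripts were tested on simulated data. Alternatives changed the scaling, pseudocount, filter, probe set rule, prior, control and arrays. Array number limits the precision. The members and lists were chosen with earlier results of these data known. Beside the members, at most 3 genes per list and line past the threshold were named, by smallest p, with 3 relatives, the 5 genes most similar in pattern and KDM3A.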

Additional observations from a re-analysis of the deposited data

Results flagged for a closer look

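The response to siKDM3A differed between SW780 and A549 by the interaction test for 5 of the 8 genes, in each with the larger rise in SW780. On the log2 scale the differences were 2.256 for IFI44L, 2.252 for IFI27, 1.609 for IFIT1, 0.963 for IFI6 and 0.84 for IFI44. The genes were chosen with the SW780 rise known, so these values are not independent support for it.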

How the results depend on the processing

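The counts of 7 of 8 genes higher under siKDM3A in SW780 and 8 of 8 lower in SW780 controls held under every alternative run. None of these took a second probe set alone, and on its own the second IFIT2 probe set was not lower in SW780 controls (0.16, adjusted p = 0.222). The A549 count of 3 under siKDM3A fell to 1 with no filter, with a constant prior variance and with siFFluc as the only control, where IFIT2 turned to -0.024; leaving out arrays gave 1 to 3. The A549 count of 1 for siFFluc against siEGFP was 2 with quantile normalization, a pseudocount of 64, the 60th percentile filter or the mean of probe sets, and 3 with only the A549 arrays; leaving out arrays gave 1 to 3. The SW780 count of 2 became 0 with only the SW780 arrays and was at most 3 elsewhere, and the interaction count of 5 ran from 4 to 6. With the replicate number as a block the counts were 7 in SW780 and 2 in A549 under siKDM3A, 2 for siFFluc in each line and 5 for the interaction, and all genes called in the interaction went from 392 to 250; deviations of same-numbered arrays correlated at -0.031 to 0.012, so the numbers were not taken to pair arrays. Median scaling moved the median of all genes between control lines from -0.107 to 0.105 and turned the A549 split from 749 higher and 896 lower to 1844 and 555, with the 8 genes' median going from 0.10 to 0.20. It turned the interaction from 253 and 139 to 145 and 571, siFFluc in SW780 from 431 and 372 to 632 and 261, and the control lines from 4204 and 5413 to 5451 and 4112. Over all alternatives the genes called ran from 749 to 2618 under siKDM3A in SW780 (1675 as reported), 523 to 2621 in A549 (1645), 43 to 954 for the interaction, 167 to 1937 for siFFluc in SW780 (803) and 179 to 584 in A549 (410); effectors ran from 12 to 23 in SW780 (19) and 0 to 12 in A549 (7). The causes of these shifts were not tested.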

Other observations

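IFNK, an interferon known from keratinocytes, was singled out after its values were seen. Its signal in A549 was 818 and 782 under siEGFP, 864 and 885 under siFFluc, and 1124 and 1200.4 under siKDM3A, and in SW780 it was 2.0 to 25.4, below the filter signal of 29.6 on every array, so no fold between the lines is given. The A549 difference under siKDM3A was 0.47 ± 0.23 with an adjusted p of 0.229.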
